A study of Mus musculus with 16 samples.

Results

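The 10 genes described here, Fos, Fosb, Fosl2, Junb, Egr1, Egr3, Arc, Npas4, Nr4a1 and Nr4a3, are immediate early genes, which neurons transcribe within minutes of synaptic activity without first making new protein. They were taken by gene name from tables of 24421 names, as a list put together with earlier results of these data known. All 10 passed the filter on low values and belonged to the 17317 genes tested. RNA sequencing was performed on the dentate gyrus of male C57BL/6 mice that were 1 year old, and the question was how a genetic loss of p16 and physical exercise change its transcriptome. There were 16 libraries in 4 groups of 4, and each library pooled the dentate gyri of 2 mice. The p16 WT CTL group (libraries 1 to 4) consisted of wild-type sedentary mice in a standard cage, and the p16 KO CTL group (libraries 5 to 8) of sedentary p16Ink4a -/- mice, which lack p16Ink4a in every cell and keep a functional p19Arf. The p16 WT RUN (libraries 9 to 12) and p16 KO RUN (libraries 13 to 16) groups consisted of mice of the same genotypes with free access to a running wheel for 12 days. All mice were killed by rapid decapitation, with dissection at once, so that each level is one moment after cage or wheel activity whose timing is not given in the sources used here. The spread between libraries is the spread between pools of mice. In bulk tissue, fewer cells of a type and less RNA per cell cannot be told apart.

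In a neuron, calcium entry and growth factor signalling reach the nucleus through kinases that act on transcription factors already bound at these genes, such as Creb and Srf. The messages appear quickly and are mostly short-lived. The products fall into a few classes. Fos, Fosb and Fosl2 are partners of Jun proteins such as Junb in the AP-1 transcription factor. Egr1 and Egr3 are zinc finger transcription factors, Nr4a1 and Nr4a3 are orphan nuclear receptors, and Npas4 is a basic helix-loop-helix PAS factor that responds selectively to calcium entry in neurons. Arc acts at the synapse, where it promotes the removal of AMPA receptors. In the dentate gyrus, granule neurons fire sparsely and these genes are widely used to mark the neurons that were recently active.

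Promoters of members are shown as a description of the sequence next to their start sites, and no relation between a motif and a level was tested. The RefSeq promoter table (GRCm38.p6, the mm10 build) held an entry for 7 of the 10 members, namely Fos, Fosb, Fosl2, Junb, Npas4, Nr4a1 and Nr4a3. The promoters of Egr1, Egr3 and Arc were not analysed here. The 250 bases before the start site were searched on both strands for TGACG, one arm of the cAMP response element bound by Creb family factors. The capitals below mark TGACG or its reverse complement CGTCA, and each sequence reads 5′ to 3′ on the strand of its gene. Fos (chr12:85473640-85473889, plus strand) held 2 matches, Npas4 (chr19:4989972-4990221, minus strand) held 2, Nr4a1 (chr15:101266596-101266845, plus strand) held 4, Nr4a3 (chr4:48045055-48045304, plus strand) held 4 and Fosl2 (chr5:32136222-32136471, plus strand) held 0.
Fos: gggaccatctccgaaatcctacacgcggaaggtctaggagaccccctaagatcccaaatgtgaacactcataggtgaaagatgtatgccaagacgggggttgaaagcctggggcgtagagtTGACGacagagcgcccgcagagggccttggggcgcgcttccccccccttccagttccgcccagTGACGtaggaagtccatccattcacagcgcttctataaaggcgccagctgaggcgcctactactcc
Npas4: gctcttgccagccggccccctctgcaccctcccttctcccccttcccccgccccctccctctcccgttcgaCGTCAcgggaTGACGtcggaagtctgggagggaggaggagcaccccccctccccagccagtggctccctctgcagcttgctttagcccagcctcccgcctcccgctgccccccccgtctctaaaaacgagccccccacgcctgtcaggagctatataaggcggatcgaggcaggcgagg
Nr4a1: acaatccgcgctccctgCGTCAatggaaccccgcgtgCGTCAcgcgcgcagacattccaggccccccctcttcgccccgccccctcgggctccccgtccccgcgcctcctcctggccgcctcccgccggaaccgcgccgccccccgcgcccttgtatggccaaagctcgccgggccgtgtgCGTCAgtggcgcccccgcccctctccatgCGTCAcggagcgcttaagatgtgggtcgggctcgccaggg
Nr4a3: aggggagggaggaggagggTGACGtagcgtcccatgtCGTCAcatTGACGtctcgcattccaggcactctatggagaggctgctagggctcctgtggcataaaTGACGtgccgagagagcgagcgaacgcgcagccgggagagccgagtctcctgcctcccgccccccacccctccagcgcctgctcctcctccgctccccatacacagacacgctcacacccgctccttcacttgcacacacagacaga
Fosl2: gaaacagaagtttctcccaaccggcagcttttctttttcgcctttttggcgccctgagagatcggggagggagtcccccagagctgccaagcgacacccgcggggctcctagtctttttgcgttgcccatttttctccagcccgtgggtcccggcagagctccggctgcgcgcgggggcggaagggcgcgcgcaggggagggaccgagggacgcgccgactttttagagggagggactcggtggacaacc
With 1 match each in Fosb (chr7:19310046-19310295) and Junb (chr8:84978749-84978998), TGACG stood in 6 of the 7 member promoters, compared with 17.8% of all 32851 promoters of this length in the table. The full 8-letter element TGACGTCA, which contains TGACG on both strands, stood in 0 of the 7 and in 1.55% of all. The Egr site GCGGGGGCG stood in 3 (Fosb, Fosl2 and Nr4a1, against 2.57% of all) and TATAAA in 1 (Fos, at bases -33 to -28, against 12.4%). The AP-1 site TGANTCA and the CArG box, the site of Srf, were in 0 of these windows, against 6.75% and 1.47% of all. These are counts of letters in 250-base windows and not of occupied sites.

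The libraries were checked for tissue make-up before the members were compared. All granule neuron markers were detected in every group, and Prox1, which specifies granule neurons, ranged from 58.1 to 187 TPM (the TPM unit gives a gene's share of all transcripts, corrected for transcript length, so that levels can be compared between genes). The summed level of 7 granule markers ranged from 565 to 1202 TPM in the wild-type and 433 to 917 in the knockout sedentary group, and from 727 to 1052 and 810 to 1215 in the running groups. The lowest sums belonged to p16 KO CTL 8 (433) and p16 WT CTL 2 (565). The sum of 4 CA1 markers was 265 TPM in p16 KO CTL 8 and 68 to 151 in the other 15 libraries. A sum of 6 RNAs retained in the nucleus was 473 TPM in p16 KO CTL 7 and 536 in p16 KO CTL 6, reached 968 in p16 WT CTL 2, and was 1810 to 2510 in the other 13. All of these libraries were sedentary, so results were also computed without them. Cdkn2a, the gene that encodes p16Ink4a, lay at 0 to 0.59 TPM in the wild-type libraries and 0 to 0.41 in the knockout libraries, too low to check the genotype. Read counts were not analysed here. Coverage relative to the typical library was 0.900 to 1.95 (wild type) and 0.914 to 1.68 (knockout) in sedentary mice, and 0.621 to 0.877 and 0.796 to 0.893 in runners, so every running library lay below every sedentary one and coverage cannot be told apart from running.

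Over the 16 libraries Egr3 was the most abundant member, with a mean of 109 TPM. Egr1 (77.0), Arc (75.8), Nr4a3 (71.8) and Junb (64.6) came next, and the ranges of these 4 overlapped almost completely, so that their order was within the spread of the libraries. Fosl2 (35) and Nr4a1 (29.4) followed with overlapping ranges, then Fos (12.1), Fosb (8.32) and Npas4 (5.90), again with overlapping ranges. The members also differed in variability. The ratio of the highest to the lowest library was 12.9 for Npas4, 6.96 for Fos, 4.28 for Nr4a1 and 4.25 for Arc, and between 2.06 and 2.97 for Egr1, Nr4a3, Fosb, Fosl2 and Junb. It was 1.59 for Egr3. The SD of the log2 level within groups was 0.80 for Npas4, 0.78 for Fos, 0.75 for Arc and 0.69 for Nr4a1, at the 97.5th, 97.4th, 97.0th and 96.5th percentile of 14438 genes that averaged 1 TPM or more, whose median was 0.16. It was 0.55 for Egr1, 0.40 for Nr4a3, 0.37 for Fosb and 0.33 for Junb (94.3rd, 88.4th, 86.4th and 82.5th percentile). Fosl2 (0.22, 65.7th percentile) and Egr3 (0.12, 33.1st percentile) were as even between replicates as ordinary genes. Coverage per base was 4.93 to 88.6 for Npas4, 10.4 to 173 for Fos and 220 to 535 for Egr3, and the part of depth in these spreads was not tested.

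**Figure D1:**
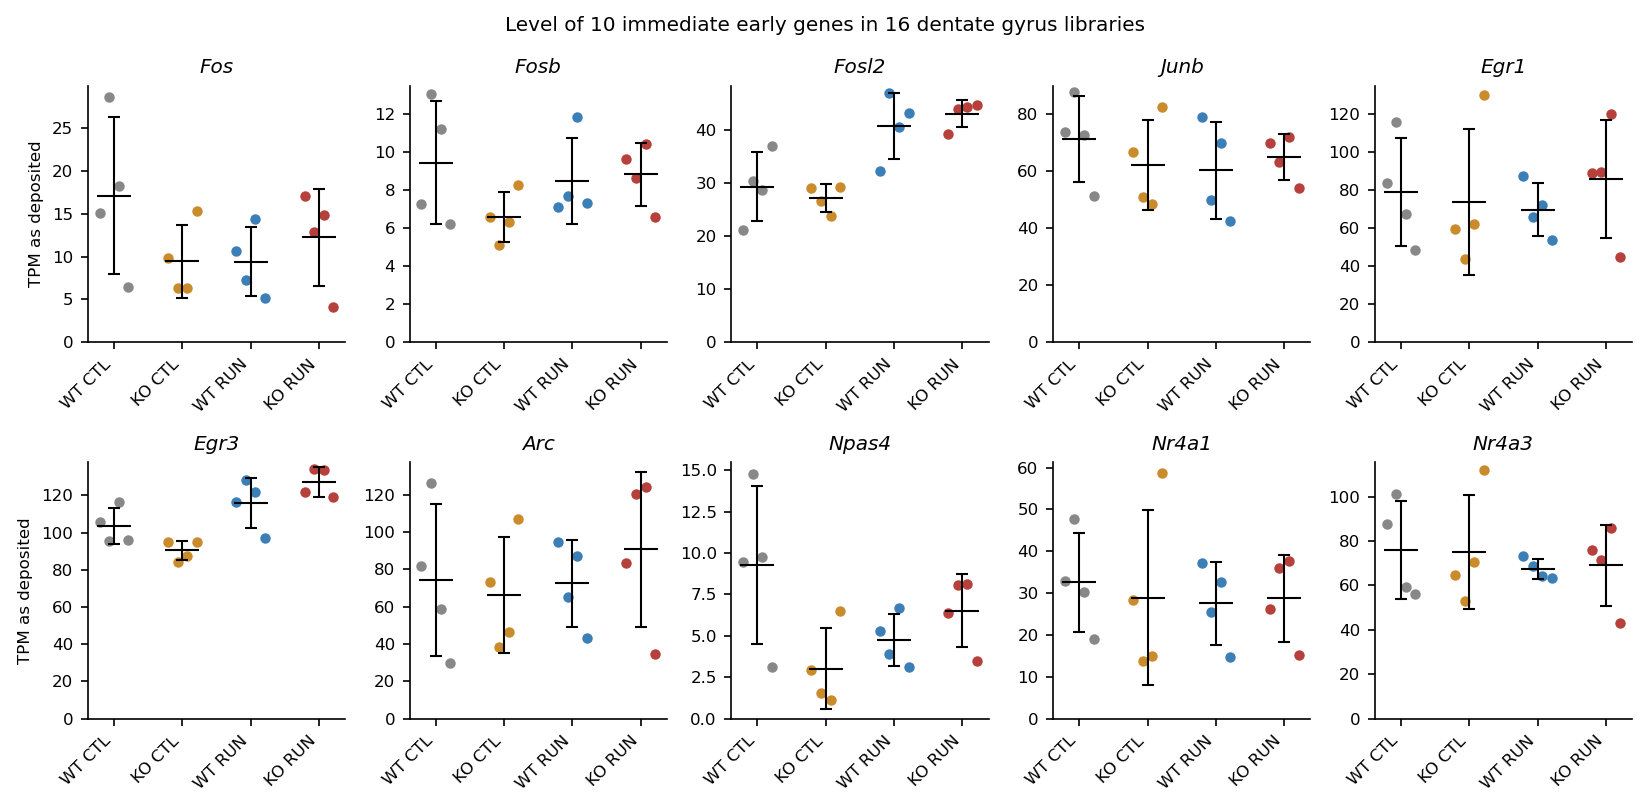
Level of each of the 10 members in TPM in each of the 16 libraries, 1 panel per gene and 1 point per library, with a bar at the group mean. For Fosl2 and Egr3, 7 of the 8 libraries of running mice lay above all 8 sedentary ones, while Fos, Npas4, Arc and Nr4a1 spread over 4.25-fold to 12.9-fold from library to library. The share of all genes with such a separation was not computed.

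Running was compared with the sedentary state first, over both genotypes. Fosl2 and Egr3 were the members that rose. Fosl2 (chr5:32136472-32157839, plus strand) encodes Fra-2, an AP-1 subunit that accumulates more slowly and persists longer than Fos. Its level in p16 WT CTL was 21.2, 30.3, 28.7 and 36.9 TPM, and in p16 KO CTL 28.9, 26.5, 23.7 and 29.2 TPM. In p16 WT RUN it was 32.2, 46.9, 40.4 and 43.2 TPM, and in p16 KO RUN 39.2, 43.9, 44.2 and 44.5 TPM. Of the 8 running libraries, 7 lay above all 8 sedentary libraries, the exception being p16 WT RUN 9 at 32.2 TPM. The share of all genes with such a separation was not computed, here and for Egr3 below. Group means were 29.3 ± 6.45 and 27.1 ± 2.58 TPM in the sedentary groups and 40.7 ± 6.23 and 43.0 ± 2.53 TPM in the running groups (wild-type and knockout, SD, n = 4). The log2 difference was 0.54 (SE 0.10, 95% interval 0.33 to 0.75), a fold of 1.45, with an adjusted p = 0.0219 in limma, and it was number 47 of the 17317 genes by p.

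Egr3 (chr14:70077445-70082613, plus strand) is a transcription factor of the Egr family that neuronal activity induces and that regulates synaptic genes. It measured 106, 95.3, 116 and 96.2 TPM in p16 WT CTL and 94.7, 84.3, 87.4 and 95 TPM in p16 KO CTL. It measured 116, 128, 122 and 97.2 TPM in p16 WT RUN and 122, 134, 134 and 119 TPM in p16 KO RUN. Here too 7 of the 8 running libraries were above all sedentary ones, and p16 WT RUN 12 at 97.2 TPM was the exception. The group means were 103 ± 9.77 and 90.3 ± 5.35 TPM at rest, and 116 ± 13.4 and 127 ± 7.98 TPM with running (wild-type and knockout, SD, n = 4). The log2 difference was 0.29 (SE 0.06, 95% interval 0.16 to 0.41), a fold of 1.22, with an adjusted p = 0.0390 in limma. Both calls rested on small margins. Without the 3 libraries low in nuclear RNA the log2 difference was 0.53 for Fosl2 (adjusted p = 0.167) and 0.27 for Egr3 (adjusted p = 0.247), so that the sizes were kept and the calls were not. Without the 2 libraries lowest in granule markers both calls were lost too, at 0.58 (adjusted p = 0.0619) and 0.29 (adjusted p = 0.0815). With each library left out in turn the Fosl2 call held in 10 of 16 fits (0.47 to 0.59, adjusted p from 0.0124 to 0.0650) and the Egr3 call in 5 of 16 (0.26 to 0.33, adjusted p from 0.0213 to 0.0970). The libraries whose removal ended a call were p16 KO CTL 6 and 7, p16 WT RUN 10 and 12 and p16 KO RUN 14 and 15 for Fosl2. For Egr3 they were p16 WT CTL 1, 2 and 4, p16 KO CTL 6, 7 and 8, p16 WT RUN 9, 10 and 11, and p16 KO RUN 14 and 15. Fosl2 measured 30.3, 26.5 and 23.7 TPM in those 3 libraries, inside the range of the other 5 sedentary libraries (21.2 to 36.9 TPM). Egr3 measured 95.3, 84.3 and 87.4 TPM in them, and 2 of these 3 values lay below the other 5 sedentary libraries (94.7 to 116 TPM). In the same comparison 1 of the 7 granule markers was higher at an unadjusted p under 0.05 (median of the list 0.24 on the log2 scale). Of the 6 nuclear RNAs 1 was higher, Malat1, at 0.96 (adjusted p = 0.172 in limma), and 6 of 6 had a difference above 0 (median 0.60). Of 5 endothelial markers 3 were higher (median 0.28), with summed levels of 56.6 to 85.8 and 41.3 to 85.7 TPM in the sedentary groups and 77.7 to 87.1 and 72.4 to 111.5 TPM in the running groups (wild type and knockout). Of 5 microglial markers 3 were lower (median -0.19), with sums of 306.5 to 351 and 303 to 437 TPM at rest and 289 to 322 and 283 to 346 TPM with running. Of 5 astrocyte markers 2 were lower (median -0.13), with sums of 1183 to 1538 and 1166 to 1887 TPM at rest and 1227 to 1694 and 1250 to 1512 TPM with running. Of 6 markers of GABAergic interneurons 2 were higher (median 0.02), of 5 oligodendrocyte markers 1 was lower (median -0.16, 0 of 5 above 0) and of 5 choroid plexus markers 1 was lower (median -0.45, 0 of 5 above 0). Their summed levels over the sedentary libraries were 807 to 1285, 878 to 2244 and 26.5 to 211 TPM, and over the running libraries 880 to 1083, 1007 to 1593 and 16.7 to 61.6 TPM. No marker of these lists was at 0 in all libraries of a group. The part of these shifts in the Fosl2 and Egr3 differences was not tested, and coverage, lower in every running library, cannot be told apart from running.

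With 2 of 10 members called at an adjusted p under 0.05, the share called among all genes was 0.751%. At an unadjusted p under 0.05 it was again 2 of 10 members, both higher, against 17.9% of all genes (9.87% higher and 8.02% lower), which is near the share of the members. The median log2 difference of the 10 members was 0.07, compared with 0.01 for all genes. For the other 8 members none of the running libraries exceeded all sedentary ones. The log2 differences with their 95% intervals were -0.28 for Fos (-1.02 to 0.46), 0.11 for Fosb (-0.25 to 0.47) and -0.13 for Junb (-0.44 to 0.19). They were 0.02 for Egr1 (-0.50 to 0.55), 0.21 for Arc (-0.50 to 0.92) and 0.21 for Npas4 (-0.55 to 0.98). For the nuclear receptors they were -0.08 for Nr4a1 (-0.74 to 0.58) and -0.16 for Nr4a3 (-0.54 to 0.22). A change of the size seen for Fosl2 lay inside the intervals of Arc, Npas4, Egr1 and Nr4a1, so it could not be told from none at this spread. It lay outside those of Fos, Fosb, Junb and Nr4a3 in this fit of all 16 libraries. Under the alternatives these differences reached at most 0.02 for Fos, 0.27 for Fosb, 0.01 for Junb and 0.03 for Nr4a3. Their intervals there were not compared with this change.

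**Figure D2:**
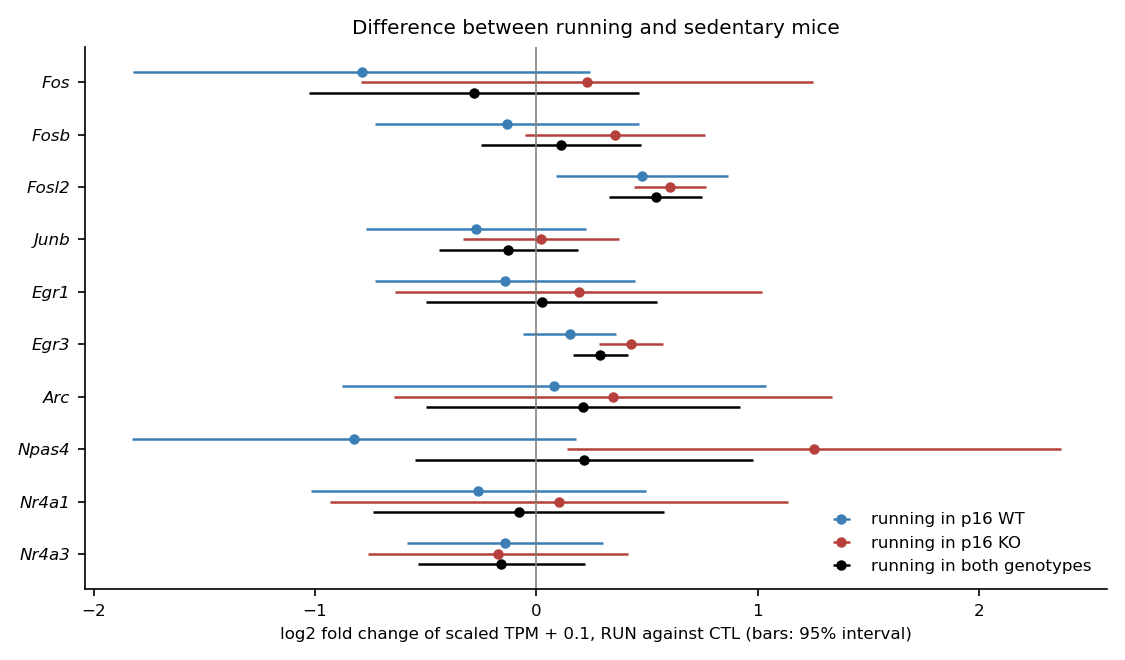
Log2 difference between running and sedentary mice for each member, with 95% intervals (limma) and a line at 0. Over both genotypes (16 libraries), the intervals of Fosl2 (0.33 to 0.75) and Egr3 (0.16 to 0.41) lie above 0. Those of the other 8 members include 0.

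The study's pairwise comparisons share groups, so that they are not separate evidence. Set A and Set B share p16 KO CTL, Sets B, C and D share p16 WT CTL, Sets A, D and E share p16 KO RUN, and Sets C and E share p16 WT RUN. In Set A (p16 KO RUN against p16 KO CTL) the Fosl2 groups did not overlap, the log2 difference was 0.60 (SE 0.07) and the adjusted p = 0.0608 (limma), number 4 of all genes. The Egr3 groups did not overlap either, with a log2 difference of 0.43 (SE 0.06, adjusted p = 0.0806, number 17). For both genes the exact permutation test gave p = 0.0286, the smallest that 4 against 4 allows. The share of all genes whose groups did not overlap was not computed for any Set. At an unadjusted p under 0.05 (limma) 18.5% of all genes passed in Set A and 8.63% in Set D. In Set C (p16 WT RUN against p16 WT CTL) the differences were 0.48 for Fosl2 (SE 0.17, limma adjusted p = 0.985, exact permutation p = 0.0857) and 0.15 for Egr3 (95% interval -0.06 to 0.36, exact permutation p = 0.200), and the groups overlapped. In Set D (p16 KO RUN against p16 WT CTL) they were 0.57 (adjusted p = 0.296) and 0.30 (adjusted p = 0.299), each without overlap. In Set E (p16 KO RUN against p16 WT RUN) they were 0.10 (95% interval -0.16 to 0.36) and 0.15. In Set B, the sedentary knockout against the sedentary wild type, they were -0.03 (95% interval -0.36 to 0.31) and -0.13 (95% interval -0.29 to 0.03, limma adjusted p = 0.625). The Egr3 groups of Set B did not overlap in TPM, narrowly, at 84.3 to 95 TPM against 95.3 to 116 TPM, and the exact permutation test on the scaled values gave p = 0.114.

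Whether running acted differently in the 2 genotypes was tested with the interaction term. For Fosl2 it was 0.13 (95% interval -0.30 to 0.55), so a difference in either direction remained possible. For Egr3 the running difference was larger in the knockout by 0.28 (SE 0.12, unadjusted p = 0.0312), with an adjusted p = 0.797 in limma. It was 0.20 to 0.34 with each library left out, where the largest unadjusted p was 0.0699 (limma) and did not pass. Without the 3 libraries low in nuclear RNA it was 0.26, and its unadjusted p no longer passed either (0.0912, limma).

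Npas4 (chr19:4984355-4989971, minus strand) had the largest interaction. This factor controls genes of inhibitory synapses. Its level was 9.48, 14.8, 9.79 and 3.12 TPM in p16 WT CTL and 2.92, 1.55, 1.14 and 6.47 TPM in p16 KO CTL. It was 5.26, 3.93, 6.71 and 3.14 TPM in p16 WT RUN and 6.40, 8.10, 8.13 and 3.46 TPM in p16 KO RUN. The sedentary groups thus stood at opposite ends, at 9.29 ± 4.77 TPM in the wild type and 3.02 ± 2.42 TPM in the knockout, with the running groups between them at 4.76 ± 1.57 and 6.52 ± 2.20 TPM (SD, n = 4). Every pair of groups overlapped in at least 1 library. In Set B (knockout against wild type, both sedentary) the log2 difference was -1.64 (SE 0.59, limma adjusted p = 0.625, exact permutation p = 0.0571), and in Set A it was 1.25 (SE 0.49, limma adjusted p = 0.242, exact permutation p = 0.0857). In Set C it was -0.82 (SE 0.45, exact permutation p = 0.200) and in Set E 0.44. The interaction was 2.08 (SE 0.72, 95% interval 0.55 to 3.61, unadjusted p = 0.0110), with an adjusted p = 0.797 in limma. Of the 3 libraries low in nuclear RNA, the 2 of the knockout held the lowest Npas4 levels of all 16 (1.55 and 1.14 TPM), and p16 WT CTL 2 held the highest (14.8 TPM). Without these 3 libraries the interaction was 0.99 (unadjusted p = 0.169), the Set B difference -0.55 and the Set A difference 0.48. Marker lists moved in the same comparisons. In the interaction 2 of 4 CA1 markers were lower (median -1.06), 1 of 6 markers of GABAergic interneurons was lower (median -0.20) and 1 of 5 markers of newborn neurons was higher (median 0.28). The medians of the lists without a member past the unadjusted threshold included 0.87 for nuclear RNA, 0.44 for blood, 0.38 for endothelium, 0.32 for granule neurons, -0.57 for oligodendrocytes, -0.24 for astrocytes and -0.23 for microglia. In Set B the medians were -0.89 for nuclear RNA and -0.16 for granule neurons (0 genes past the threshold in each), 0.66 for CA1 markers (1 of 4 higher), 0.42 for oligodendrocytes (0 of 5) and 0.20 for microglia (2 of 5 higher). Other Set B medians were 0.15 for GABAergic interneurons (2 of 6 higher), 0.27 for astrocytes (1 of 5 higher) and -0.25 for endothelium (0 of 5). In Set A they were 1.07 for nuclear RNA (1 of 6 higher), 0.29 for granule neurons (1 of 7 higher), -0.47 for CA1 markers (1 of 4 lower), -0.41 for oligodendrocytes (3 of 5 lower) and -0.28 for microglia (2 of 5 lower). Set A also gave 0.53 for endothelium (2 of 5 higher), -0.34 for astrocytes (2 of 5 lower) and 0.15 for newborn neurons (2 of 5 higher). For GABAergic interneurons the Set A median was -0.09 (1 of 6 higher and 1 lower). The part of these shifts in the Npas4 and Egr3 values was not tested.

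Counts of members in the pairwise comparisons stayed small. At an adjusted p under 0.05 in limma, 0 of the 10 members were called in Sets A, B, C, D and E, in the interaction and for genotype over both activities. The share of all genes called so was 0.0173% in Set A, 0.00577% in Set E and 0.0% in the others. At an unadjusted p under 0.05 there were 3 members in Set A (Fosl2, Egr3 and Npas4, against 18.5% of all genes), 1 in Set B (Npas4, against 6.69%), 1 in Set C (Fosl2, against 4.81%) and 2 in Set D (Fosl2 and Egr3, against 8.63%). There were 0 in Set E (3.87% of all genes), 2 in the interaction (Npas4 and Egr3, 5.48%) and 0 for genotype (7.12%). These shares of all genes moved with single libraries. With each library left out in turn they were 11.6% (without p16 KO CTL 7) to 27.3% (without p16 KO CTL 5) in Set A. They were 3.23% (without p16 KO CTL 7) to 17.5% (without p16 WT CTL 2) in Set B and 3.59% (without p16 WT CTL 3) to 13.7% (without p16 WT CTL 2) in the interaction. Set C gave 3.10% to 5.88%, Set D 6.55% to 11.2%, Set E 2.81% to 6.01%, genotype 4.17% to 15.7% and running 13.1% to 24.0%. Without the 3 libraries low in nuclear RNA the share was 8.49% in Set A and 9.21% for running. For genotype over both activities the largest member difference was -0.60, for Npas4 (95% interval -1.37 to 0.16). Apart from Npas4 and Egr3, the Fos interaction of 1.02 had a 95% interval of -0.47 to 2.51. It was 0.68 to 1.48 with each library left out, lowest without p16 WT CTL 2 and highest without p16 KO RUN 16, and 0.25 without the 3 libraries low in nuclear RNA.

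Single libraries moved these counts. Libraries p16 WT CTL 4 and p16 KO RUN 16 were low in nearly all members at once, and leaving either out let more members past the unadjusted threshold. Without p16 KO RUN 16, Set A held 6 members, with Fos at 0.69, Fosb at 0.49 and Arc at 0.76 added to Fosl2, Egr3 and Npas4, against 13.2% of all genes in that setting. Set E then held 5, all higher in p16 KO RUN (Fos 0.77, Egr1 0.54, Arc 0.65, Npas4 0.72 and Nr4a3 0.22), against 3.48% of all genes. The limma adjusted p of these 5 in Set E was then 1.00. Without p16 WT CTL 4, Set B held 4 members (Fos -1.13, Fosb -0.60, Egr3 -0.18 and Npas4 -2.11, against 4.24% of all genes) and Set C held 3 (Fos -1.21, Npas4 -1.29 and Fosl2 0.58, against 5.31%). Each of these libraries was the lowest of its group for the 8 members other than Fosl2 and Egr3. Leaving it out therefore raises their group means by construction. Those members also vary together over the libraries, so these counts are not separate results and are no evidence of a group difference. Library p16 WT CTL 4 had 1029 TPM of granule markers, inside the range of its group. Its sum of oligodendrocyte markers was the lowest of all 16, at 878 TPM against 1080 to 1879 in the other 3 of its group. Its sum of nuclear RNAs was the highest of all 16, at 2510 TPM. Library p16 KO RUN 16 stood apart from the other 3 of its group, with 1215 TPM of granule markers against 810 to 869, 129 TPM of 5 CA3 markers against 199 to 269 and 270 TPM of 5 blood markers against 490 to 689. The part of these differences in the low member levels of either library was not tested.

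For the other AP-1 members the ranges of all 4 groups overlapped. Fos (chr12:85473901-85477270, plus strand), the best known marker of recent neuronal activity, measured 15.1, 28.7, 18.3 and 6.44 TPM in p16 WT CTL and 9.80, 6.31, 6.28 and 15.4 TPM in p16 KO CTL. In the running groups it measured 10.7, 7.30, 14.5 and 5.18 TPM in the wild type and 17.1, 12.9, 14.9 and 4.13 TPM in the knockout. The lowest and the highest library of p16 WT CTL therefore differed more than any 2 group means (17.1 ± 9.21, 9.45 ± 4.29, 9.40 ± 4.05 and 12.3 ± 5.69 TPM for sedentary wild type, sedentary knockout, running wild type and running knockout, SD, n = 4). Fosb (chr7:19302696-19310045, minus strand), whose truncated product DeltaFosB accumulates with repeated stimulation, had group means of 9.43 ± 3.23, 6.57 ± 1.30, 8.48 ± 2.25 and 8.81 ± 1.66 TPM in the same order. The tables give 1 level per gene, so its isoforms were not separated. Junb (chr8:84976909-84978748, minus strand), the Jun partner among the members, had means of 71.3 ± 15.0, 62.2 ± 15.8, 60.2 ± 17.0 and 64.9 ± 8.05 TPM.

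Egr1 (chr18:34861207-34864956, plus strand), a factor required for lasting synaptic potentiation in the dentate gyrus, measured 83.5, 116, 67.4 and 48.5 TPM in p16 WT CTL and 59.3, 43.8, 61.9 and 129.8 TPM in p16 KO CTL. It measured 87.4, 65.7, 72.0 and 53.5 TPM in p16 WT RUN and 89.0, 89.4, 119.9 and 44.5 TPM in p16 KO RUN. Arc (chr15:74669081-74672570, minus strand) followed a similar order of libraries, at 81.8, 126, 58.7 and 29.7 TPM, then 72.9, 38.2, 46.2 and 107 TPM, then 94.6, 65.3, 86.9 and 43.0 TPM, then 83.3, 120.2, 124 and 34.8 TPM. Each group thus contained libraries high and low in both genes, and the group means of 66.1 to 90.6 TPM for Arc carried SDs of 23.2 to 41.5 TPM (n = 4). Nr4a1 (chr15:101266846-101274794, plus strand), which encodes the receptor Nur77, had group means of 32.5 ± 11.8, 28.9 ± 20.9, 27.5 ± 9.83 and 28.8 ± 10.4 TPM, and Nr4a3 (chr4:48045305-48086446, plus strand), which encodes Nor-1, of 76.0 ± 21.96, 74.97 ± 25.7, 67.4 ± 4.66 and 69.0 ± 18.3 TPM. The highest value of both genes was in p16 KO CTL 8, at 58.7 and 112 TPM.

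The order of the libraries was then compared between members. The split into Fosl2 and Egr3 on one side and the other 8 members on the other was made after their values were seen. In p16 WT CTL, library 2 was the highest and library 4 the lowest of the group for 8 of these 8 members. In p16 KO CTL, library 8 was the highest for 10 of 10 members, while library 6 was the lowest for 5 and library 7 for 3 of the 8. In p16 WT RUN, library 12 was the lowest for 7 of the 8, and the highest value was in library 9 for 5 and in library 11 for 3. In p16 KO RUN, library 16 was the lowest for 8 of the 8 and library 15 the highest for 7. High and low libraries thus occurred in every group. The highest libraries of the sedentary groups, p16 WT CTL 2 and p16 KO CTL 8, had the lowest granule marker sums, and p16 KO RUN 16, the lowest of its group, had the highest of all 16. Not all libraries followed this order. In p16 WT RUN the sums were 988 and 1052 TPM in libraries 9 and 11 and 838 TPM in library 12. Library p16 KO CTL 7 had 650 TPM, and p16 WT CTL 3, with 1202 TPM, was the lowest for 0 of the 8. Whether tissue make-up takes part in this order was not tested.

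**Figure D3:**
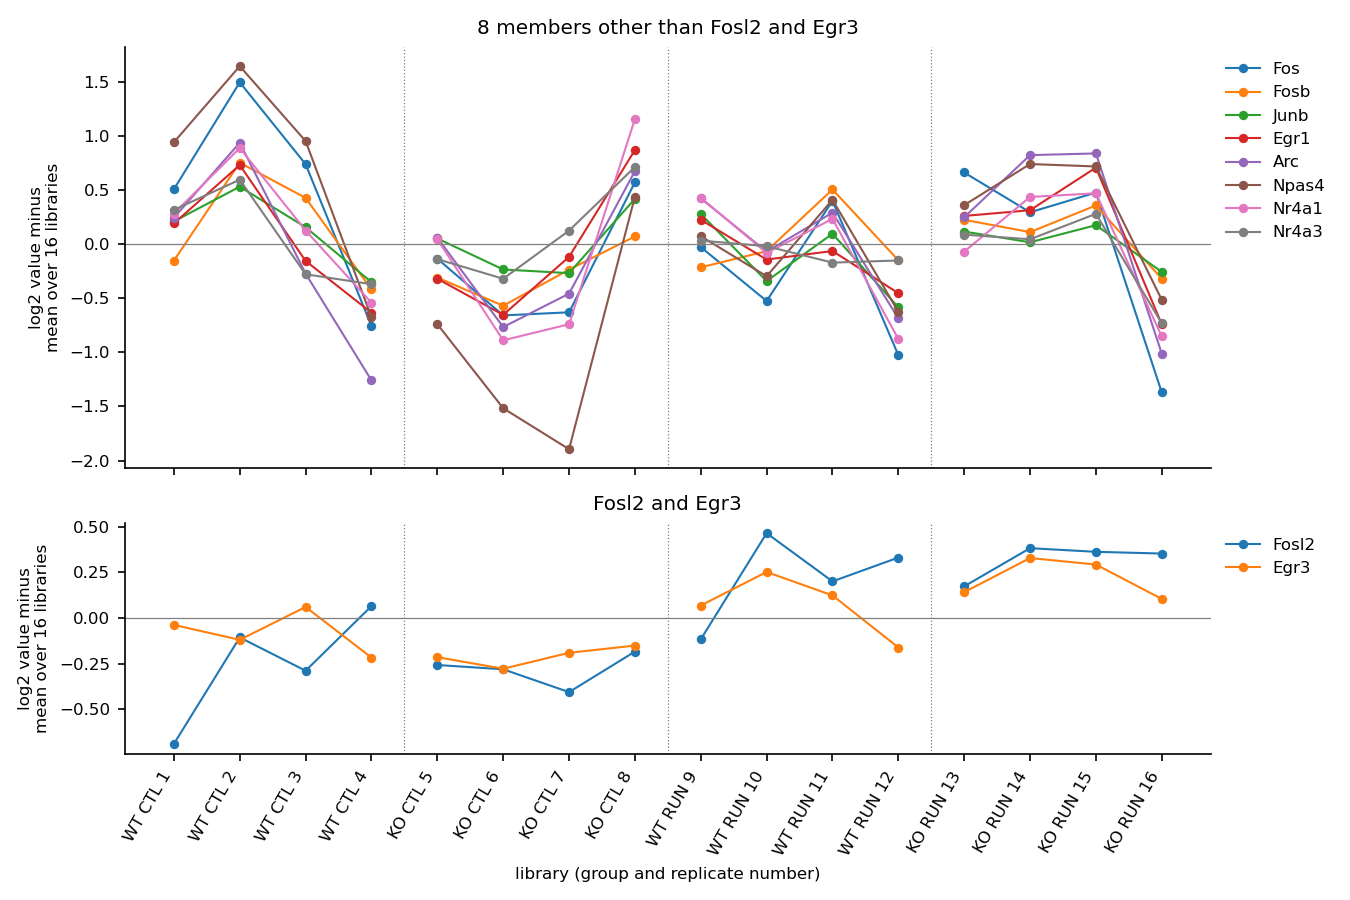
Log2 level of each member relative to its mean over the 16 libraries (vertical axis), by library in the 4 groups (horizontal axis). Within their groups, the 8 members other than Fosl2 and Egr3 are all highest at p16 WT CTL 2 and p16 KO CTL 8. All 8 are lowest of their group at p16 WT CTL 4 and p16 KO RUN 16.

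Pearson's r of the log2 levels was computed for the 45 pairs of members over 16 libraries, with 100000 permutations each and Benjamini-Hochberg adjustment over the 45 pairs. At an adjusted p under 0.05 there were 27 pairs, all positive, and 28 pairs by Spearman's rho. Of the 28 pairs among the 8 members, 26 passed, with r over all 28 from 0.48 to 0.92 (median 0.80). These 8 were set apart after their values were seen, so the counts describe them and do not test the split. The share of all gene pairs that would pass was not computed. Without the 2 libraries farthest from the median the r was 0.43 to 0.92 (median 0.74). With each group centred on its own mean, so that only the spread within groups counts, it was 0.60 to 0.96 (median 0.86). Several of the closest pairs joined genes of different classes. Egr1 and Arc had an r of 0.92 (rho 0.93), Egr1 and Nr4a3 of 0.91 (0.96 when centred) and Egr1 and Nr4a1 of 0.89 (rho 0.89). Arc and Nr4a1 had an r of 0.89 (rho 0.91, permutation p = 3e-05, adjusted p = 0.000193) and Junb and Nr4a1 of 0.89 (rho 0.84). Within AP-1, Fos and Junb had an r of 0.89 (rho 0.84, permutation p = 2e-05, adjusted p = 0.00015). Fos and Npas4 had an r of 0.83 (rho 0.82, permutation test, adjusted p = 0.00045). The 2 pairs that did not pass were Fosb with Nr4a3 (r 0.48, permutation test, adjusted p = 0.090) and Npas4 with Nr4a3 (r 0.50, adjusted p = 0.080).

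Fosl2 had an r of -0.35 to 0.18 with the 8 members and 0 of these 8 pairs passed. Egr3 had an r of 0.00 to 0.49 and again 0 of 8 passed by r, though 2 did by rho, and within groups its r was 0.33 to 0.56. Without the 2 libraries farthest from the median the r with the 8 was -0.12 to 0.66 for Egr3 and -0.22 to 0.31 for Fosl2. Fosl2 and Egr3 had an r of 0.62 with each other (rho 0.66, permutation p = 0.012, adjusted p = 0.020, r 0.66 without the 2 farthest libraries), and of -0.11 within groups, so this relation lay between the groups and not among replicates. Without the 3 libraries low in nuclear RNA 22 pairs passed, all of them among the 8 members. Without the 2 lowest in granule markers 30 passed, 24 of them among the 8.

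**Figure D4:**
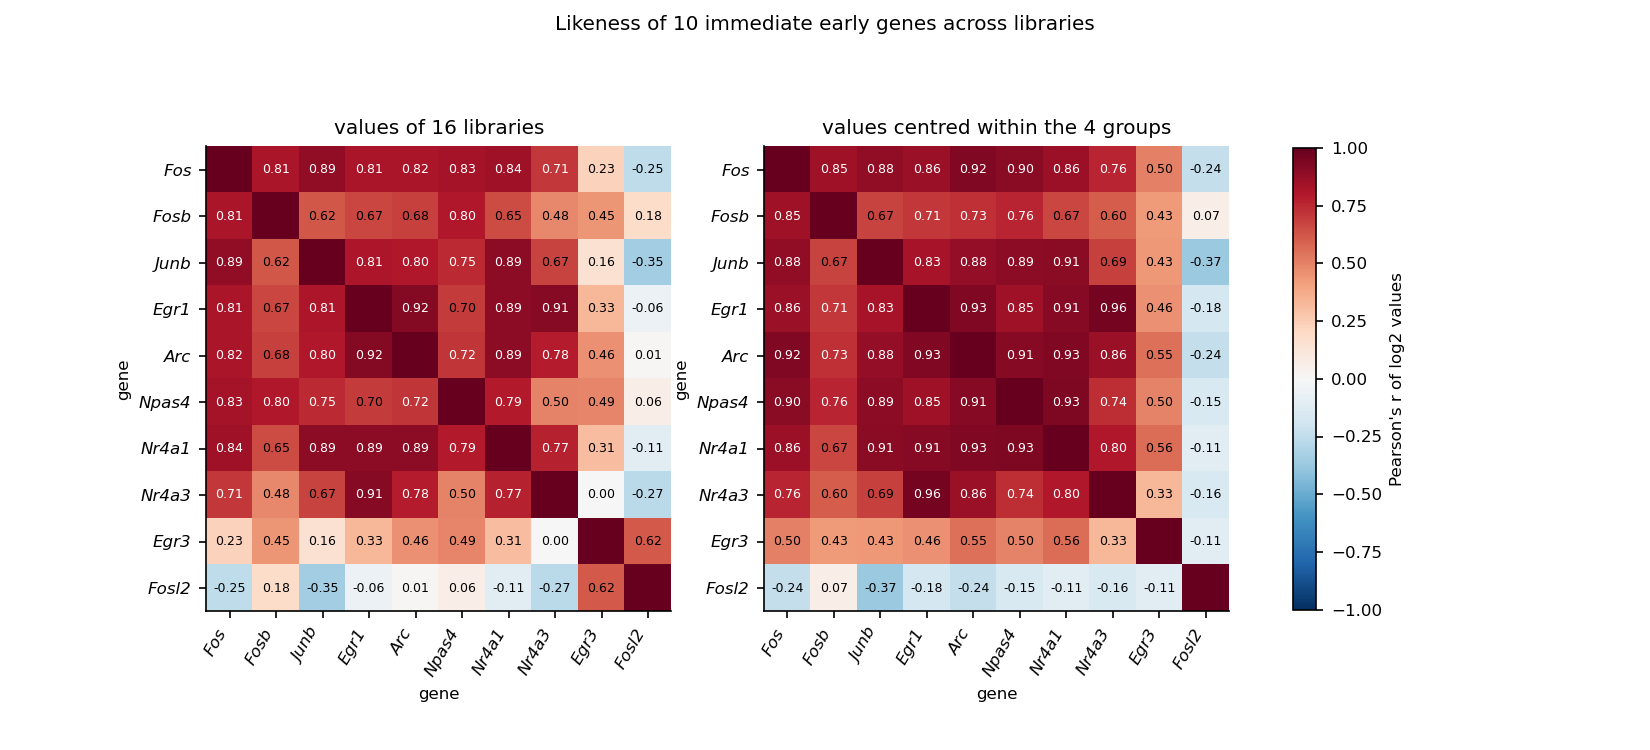
Pearson's r of log2 levels over the 16 libraries for each pair of the 10 members, written in each cell and shown by colour. Pairs among the 8 members other than Fosl2 and Egr3 lie between 0.48 and 0.92, and those of Fosl2 with these 8 between -0.35 and 0.18.

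Among 14428 other genes that averaged 1 TPM or more, those whose log2 level was most like Fos over the 16 libraries were Egr4 (r 0.91) and Egr2 (0.91), both zinc finger factors of the Egr family, then Pla2g15 (0.89), Purg (0.86) and Nwd2 (0.85). Those most like Arc were Gadd45b (0.93), an activity-induced gene linked to DNA demethylation in the dentate gyrus, then Egr4 (0.89), Sbk1 (0.86), Kctd7 (0.86) and Errfi1 (0.84). For Npas4 they were Mir7075 (0.86), Egr2 (0.83), Tmem63c (0.80), Purg (0.80) and Ddit4l (0.80). Mir7075 lies within Terf2 on the same strand, so that its reads cannot be told from those of Terf2. These r are descriptions over libraries that share a depth and a dissection each.

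Genes that act with the members were read from 4 wider lists, by the number that passed in the comparison of running with the sedentary state over both genotypes. The activity-regulated effectors, secreted and synaptic proteins whose genes are induced by activity, many of them later than the members, are described first. This list was chosen with earlier results of these data known, so its counts and sums are a description and no independent evidence of a change with running. Of its 10 genes, 3 were called at an adjusted p under 0.05 and 9 were higher at an unadjusted p under 0.05 with 0 lower, beside the 9.87% of all genes that were higher, and the median log2 difference was 0.44. Inhba, which encodes the activin A subunit, rose by 1.48 (SE 0.20, limma adjusted p = 0.00688). Nptx2, a secreted pentraxin that gathers AMPA receptors, rose by 1.29 (SE 0.17, limma adjusted p = 0.00688), from 15.7 ± 3.82 and 17.7 ± 2.73 TPM in the sedentary groups to 38.5 ± 14.9 and 47.7 ± 10.0 TPM in the running groups (wild type and knockout, SD, n = 4). Bdnf, the neurotrophin, rose by 0.44 (SE 0.08, limma adjusted p = 0.0181), from 51.0 ± 6.13 and 44.7 ± 3.38 to 63.2 ± 4.84 and 70.4 ± 7.26 TPM. The differences of Ptgs2, the inducible cyclooxygenase, and of the sorting receptor Sorcs3 were 0.54 (adjusted p = 0.143) and 0.52 (adjusted p = 0.115). The summed level of the list was 1262 to 1434 TPM (wild type) and 1249 to 1416 TPM (knockout) in sedentary mice, compared with 1495 to 1838 and 1594 to 1922 TPM in runners, with no overlap between sedentary and running libraries. Without the 3 libraries low in nuclear RNA the differences were 1.58 for Inhba (adjusted p = 0.0983), 1.33 for Nptx2 (adjusted p = 0.0983) and 0.48 for Bdnf (adjusted p = 0.121).

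Of 14 other inducible transcription factors, 13 were tested, 1 was called at an adjusted p under 0.05 and 2 were higher at an unadjusted p under 0.05 (9.87% of all genes), with a median of 0.03. Atf3, a stress- and activity-induced factor of the Atf family that can pair with Jun proteins, rose by 1.16 (SE 0.16, limma adjusted p = 0.00688), from 1.75 ± 0.0904 and 1.35 ± 0.361 TPM in the sedentary groups to 3.37 ± 1.196 and 4.07 ± 0.676 TPM in the running groups (SD, n = 4). Without the 3 libraries low in nuclear RNA its difference was 1.30 (adjusted p = 0.0692). Csrnp1 was at 0.42 (adjusted p = 0.209). Fosl1, the close relative of Fosl2, reached at most 0.38 TPM in any library and was not tested.

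Of 20 other early response genes, 0 were called at an adjusted p under 0.05, while 4 were higher and 2 lower at an unadjusted p under 0.05 (9.87% and 8.02% of all genes), with a median of -0.05. The differences were 0.33 for Dusp4 (adjusted p = 0.0650) and -0.43 for Dusp1 (adjusted p = 0.181), both phosphatases of MAP kinases, and 0.35 for Ier5, 0.25 for Rgs2 and 0.36 for Arl4d (limma adjusted p = 0.0674, 0.127 and 0.183). Of 11 upstream factors and kinases, 0 were called, 3 were higher and 1 lower at the unadjusted threshold, beside the same shares of all genes, with a median of 0.04. The differences were 0.17 for Mkl1, the cofactor of Srf, 0.13 for Mef2d, -0.26 for Mapk3, which encodes the kinase Erk1, and 0.13 for Rps6ka3, which encodes the kinase Rsk2 (limma adjusted p = 0.245, 0.196, 0.183 and 0.241). In the interaction, 1 of the 20 early response genes passed the unadjusted threshold, Btg2 (0.46, limma adjusted p = 0.797, against 5.48% of all genes), and for genotype 1 did, Fbxo33 (0.11, limma adjusted p = 0.674, against 7.12%). Of 5 heat shock genes, read as a sign of handling, 1 was higher at the unadjusted threshold with running (Hsph1, 0.18, against 9.87% of all genes), 2 of 5 had a difference above 0, and the median was -0.17.

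**Figure D5:**
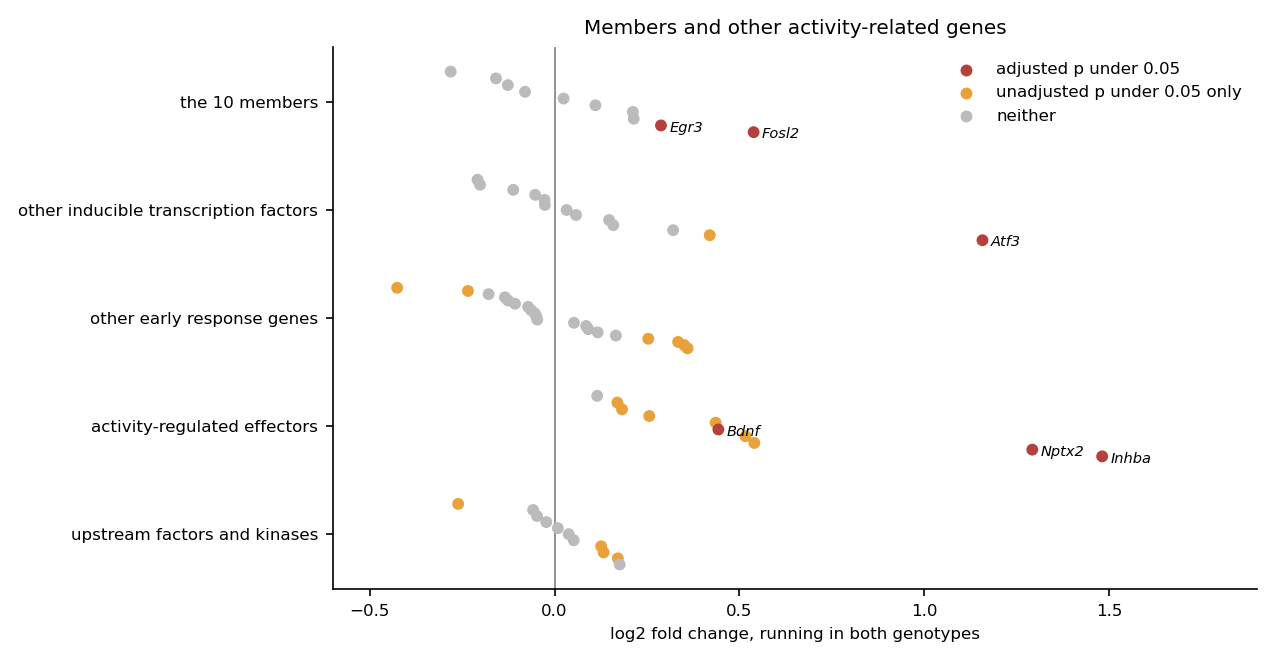
Log2 difference between running and sedentary mice over both genotypes for the members and the genes of the 4 wider lists, 1 point per gene. The effectors lie highest, with a median of 0.44, and the medians of the members (0.07), the other inducible factors (0.03), the early response genes (-0.05) and the upstream genes (0.04) lie near that of all genes (0.01).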

How the data were processed

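Adapters in the sequencing reads were masked with Cutadapt 1.11, and low-quality bases and adapters were trimmed with ERNE. Reads were aligned with STAR to mm10, and levels were estimated with StringTie. These steps are per the labels and the study's methods (bcl2fastq 2.20 is also in the submitters' processing notes). The tables deposited by the authors give TPM, FPKM and coverage for each gene, and TPM was used for levels. The FPKM deposited by the authors entered 1 alternative. The coverage deposited by the authors (mean reads per base) was used only for relative depth, since read counts were not analysed here, and limma took the place of the DESeq2 test of the study's methods. The precision of a single level at its depth is therefore unknown.

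Names with several entries in a table (112 to 130 per library) were summed. TPM was scaled by the median ratio over the 13226 genes that reached 1 TPM in each of the 16 libraries, taken as log2(scaled TPM + 0.1) and fitted with limma 3.58.1 (R 4.3.3, variance trend) over 17317 of 24421 names with a mean of at least 0.1 TPM, with Benjamini-Hochberg adjustment over all of them. This scale understates the change of low genes. Printed TPM are as deposited. Sets A to E used the 8 libraries compared. The interaction and the running and genotype differences used all 16. Single values were compared with two-sided exact permutation tests over 35 splits of 4 against 4, and pairs of members over libraries with 100000 permutations (scipy 1.17.1), whose smallest p is 1e-05. The script was tested on simulated data.

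All 10 members are named. Genes of the wider lists are named where the unadjusted p was under 0.05 for running, genotype or the interaction, at most 5 of smallest p per list, and the genes most like Fos, Arc and Npas4 are the 5 of highest r for each. Members and lists were chosen with earlier results of these data known. Alternatives were other pseudocounts, filters, scalings and variance models, each library left out, and, added after the data were seen, the libraries low in nuclear RNA or in granule markers left out.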

Additional observations from a re-analysis of the deposited data

Results flagged for a closer look

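In groups of 4, a single library stood apart from its group for 2 of the 40 combinations of member and group, by the gap to the nearest library divided by the range of the group (Dixon's test at the 95% level). Chance gives about 1 in 20. Fosb in p16 WT RUN had a ratio of 0.882, with 11.8 TPM in library 11 and 7.11 to 7.67 TPM in the other 3. Fosl2 in p16 KO RUN had a ratio of 0.888, with 39.2 TPM in library 13 and 43.9 to 44.5 TPM in the other 3.

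The running difference differed between the genotypes at an unadjusted p under 0.05 for 2 members. For Npas4 it was larger in the knockout by 2.08 on the log2 scale, and for Egr3 by 0.28, both with an adjusted p = 0.797 in limma over all genes. The Npas4 value was 1.76 to 2.54 when each library was left out in turn, and 0.99 (limma, unadjusted p = 0.169) without the 3 libraries low in nuclear RNA. The Egr3 value was 0.20 to 0.34 when each library was left out in turn (limma, unadjusted p up to 0.0699). Without these 3 libraries it was 0.26 (limma, unadjusted p = 0.0912).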

How the results depend on the processing

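No paired analysis was possible because the 4 groups share no replicate number in the labels, so no fit with a replicate block was made. Of 80 member differences, 11 had an unadjusted p under 0.05 and 0 of these changed sign under any alternative. Of the other 69, 48 changed sign somewhere, and 1 did so with an unadjusted p under 0.05, Nr4a3 in Set E, which lay between -0.12 and 0.22 with each library left out and was highest without p16 KO RUN 16.

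At an adjusted p under 0.05, the count of members for running was 2. It was 1 without a variance trend, 0 without the 2 libraries lowest in granule markers, 0 without the 3 low in nuclear RNA and 0 to 2 with each library left out. In Set A it was 0 (0.0173% of all genes), with 1 at a filter of 1 TPM and 0 to 2 with each library left out. The 2 were Fosl2 and Egr3 without p16 KO CTL 5 (limma adjusted p = 0.0362 and 0.0469). In that setting 27.3% of all genes had an unadjusted p under 0.05, against 18.5% with all libraries. At an unadjusted p under 0.05, the count in Set B was 1, and 0 to 4 with each library left out. It was 2 on TPM as deposited (6.43% of all genes) and 0 without the 3 libraries low in nuclear RNA (6.70%). Leaving out each library gave 2 to 6 in Set A, 0 to 3 in Set C, 0 to 5 in Set E, 1 to 3 in the interaction and 0 to 1 for genotype, while the share of all genes called ranged from 11.6% to 27.3%, 3.10% to 5.88%, 2.81% to 6.01%, 3.59% to 13.7% and 4.17% to 15.7% in the same order (3.23% to 17.5% in Set B). The interaction held 0 without the 3 libraries low in nuclear RNA (7.24% of all genes). Genotype held 1 without the 2 lowest in granule markers (18.7% of all genes). The cause was not tested.

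With each library left out, the limma calls for running held in 10 of 16 fits for Fosl2 and 5 of 16 for Egr3. Npas4 ranged from 0.93 to 1.71 in Set A and from -2.11 to -1.32 in Set B. Counts of correlated pairs were 22 to 30 of 45 under all settings, against 27. The precision of each level at its depth is unknown, and coverage was lower in every running than in every sedentary library.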
